A study of Rattus norvegicus with 5 samples.

Results

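Zinc-handling genes were followed in tumours that the rat glioma line C6-L formed in BALB/c nu/nu nude mice. The genes were the metallothioneins Mt1, Mt2A and Mt3, the zinc exporter Slc30a1 (ZnT1) and the metal-responsive transcription factor Mtf1, which make 5 of the 15436 named genes on the array. Mt3 was chosen by its measured signal, which was high in the non-irradiated primary tumour, so its values against that tumour are given as a description, and the other 4 genes were added by function. Probes were matched to genes through their RefSeq accession, the brightest probe stood for a gene, and all 5 genes were among the 11099 named genes tested. RNA was measured on 5 single-colour rat arrays. Of these, 3 held metastatic lung nodules and 1 a primary tumour that had been irradiated, with a γ-irradiation 6 weeks earlier in each case. The last held a primary that was not irradiated, collected 6 weeks after grafting. Hosts were 6 weeks old per the labels, and every tumour came from the same cell line and host strain. The 2 primaries thus differ in irradiation and possibly in time since grafting, which cannot be told apart. Whether each nodule came from an animal of its own is not given in the labels, so the p-values cover the spread between these samples alone, which may be technical.

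Metallothioneins are small cysteine-rich proteins that bind zinc and copper and buffer them in the cytosol. Mt1 and Mt2A are made in most tissues and are induced when free zinc binds the factor Mtf1, which then occupies metal response elements in their promoters. Glucocorticoids, oxidants and inflammatory cytokines raise them too. Mt3, first known as a neuronal growth inhibitory factor, is enriched in brain and responds little to metals. Slc30a1 carries zinc out of the cell across the plasma membrane and is itself a known Mtf1 target.

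The upstream sequences of Mt1, Mt2A and Slc30a1, which share the regulator Mtf1, are shown beside that of Mt3, read on the same arrays. They cover the 250 bases before the annotated start in RefSeq's GRCr8 rat genome, in which Mt1 lies at chr19:10832976-10833225, Mt2A at chr19:10838709-10838958 and Mt3 at chr19:10856081-10856330, all on the minus strand, and Slc30a1 at chr13:106021769-106022018 on the plus strand. Each is written 5′ to 3′ along its gene, and capitals mark matches to the metal response element core, TGCACNC or TGCGCNC, on either strand.
Mt3: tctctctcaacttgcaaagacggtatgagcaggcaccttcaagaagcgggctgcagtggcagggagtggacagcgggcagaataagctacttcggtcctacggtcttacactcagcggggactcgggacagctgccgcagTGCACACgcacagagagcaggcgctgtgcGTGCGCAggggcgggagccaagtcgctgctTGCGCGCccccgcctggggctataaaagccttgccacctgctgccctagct
Mt1: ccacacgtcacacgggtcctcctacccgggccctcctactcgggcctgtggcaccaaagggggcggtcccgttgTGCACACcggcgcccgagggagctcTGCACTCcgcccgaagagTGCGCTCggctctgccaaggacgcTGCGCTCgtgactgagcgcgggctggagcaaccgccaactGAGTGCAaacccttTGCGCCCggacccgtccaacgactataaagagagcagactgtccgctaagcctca
Mt2A: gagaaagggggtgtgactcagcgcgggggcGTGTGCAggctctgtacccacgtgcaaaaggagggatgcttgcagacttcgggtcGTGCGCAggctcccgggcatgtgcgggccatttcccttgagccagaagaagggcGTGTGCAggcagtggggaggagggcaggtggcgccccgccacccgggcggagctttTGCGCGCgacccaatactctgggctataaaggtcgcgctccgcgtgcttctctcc
Slc30a1: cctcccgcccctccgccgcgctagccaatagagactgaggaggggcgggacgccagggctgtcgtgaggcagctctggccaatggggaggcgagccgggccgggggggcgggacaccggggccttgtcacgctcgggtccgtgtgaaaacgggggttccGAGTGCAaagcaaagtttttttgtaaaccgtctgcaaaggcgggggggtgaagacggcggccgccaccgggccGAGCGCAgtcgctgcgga
All 5 genes had a promoter entry. Mt1 held 6 matches, Mt2A 4, Mt3 3, and Slc30a1 and Mtf1 2 each, and no match overlapped another. Of the 27457 promoters of the same length, 21.2% held at least 1 match, 5.13% at least 2, 1.25% at least 3, 0.277% at least 4 and 0.0219% at least 6. A match describes letters and does not show that the factor binds there.

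**Figure D1:**
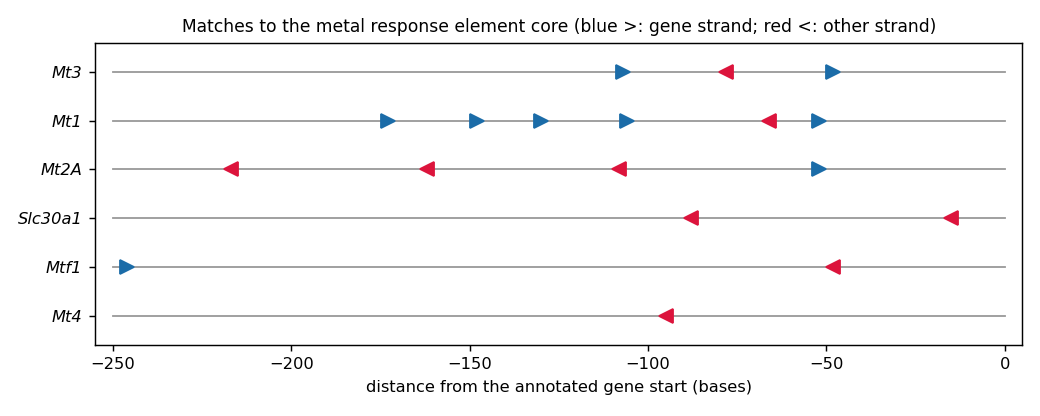
Positions of matches to the metal response element core (TGCACNC or TGCGCNC) in the 250 bases before each annotated start; the horizontal axis is the distance from the start in bases and the arrowheads give the strand of the match. Mt1 carries 6 matches within this window, Mt2A 4, Mt3 3, Slc30a1 and Mtf1 2 each, and Mt4, the remaining metallothionein of the cluster, 1.

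Levels below are log2 signals minus the array's own 75th percentile, so 0 is that percentile, and levels are compared within a gene only. Between 69.8 and 73.5% of an array's gene spots passed the flag for a signal well above background, and 0 were saturated. Precision is limited by the number of arrays, since a primary has 1 each and limma took the spread from the 3 nodules. All 5 arrays share 1 slide. Of 10 alveolar and airway markers, 9 were above background in each of nodules 1 and 2 and 6 in nodule 3, against 5 in each primary. Their summed signal, in multiples of the array's 75th percentile, was 70.9, 20.4 and 0.484 in nodules 1, 2 and 3, against 0.665 in the irradiated and 1.72 in the non-irradiated primary. Skeletal muscle markers summed to 32.7 to 37.0 in the nodules, against 191 in the irradiated and 51.1 in the non-irradiated primary, with 10 or 11 of 14 above background in the nodules and 13 in each primary. Eno3 made most of the nodule sums, at levels of 4.73, 4.91 and 4.80, against 4.79 in the irradiated and 3.65 in the non-irradiated primary. Of 13 tested, limma called 9 lower and 1 higher (Eno3) in the nodules against the non-irradiated primary. Over all features 8.85% were called lower and 9.72% higher there. Against the irradiated primary 10 were called lower and 0 higher, where 2.81% and 0.909% of all features were. Heart markers summed to 51.4 in nodule 3, against 5.83 and 3.24 in nodules 1 and 2, 6.11 in the irradiated and 6.86 in the non-irradiated primary. The part of these other tissues in the values below was not tested. In whole tumour pieces, fewer cells of a type and less RNA per cell cannot be told apart. How far these rat probes read RNA of the mouse host was not tested.

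Mt3 was the most variable of the 5 genes. Its level was -4.76, -1.32 and -3.04 in nodules 1, 2 and 3, and -4.39 in the irradiated primary, against 2.62 in the non-irradiated primary. In signal units this was 49.2, 538 and 202 in the nodules and 68.7 in the irradiated primary, against 7829 in the non-irradiated primary. All 4 samples taken after irradiation lay far under the non-irradiated primary, and the irradiated primary lay within the range of the nodules. The irradiated primary was 128-fold lower than the non-irradiated primary (log2 difference -7.00), and the nodules averaged 50.5-fold lower (log2 difference -5.66). Of the 18449 features above background in at least 1 primary, 8 had a difference between the primaries at or below that of Mt3. Both differences belong to the choice of the gene and carry no test. With normexp background correction the log2 difference between the primaries was -5.92. The difference of the nodules from the non-irradiated primary was smaller in size under that correction too. Quantile normalization gave -7.14 between the primaries. The probe was well above background on all 5 arrays, but nodule 1 and the irradiated primary stood only 1.70 and 1.65 above the lowest detected level of their arrays. Its 2 spots differed most in the irradiated primary (SD 0.38 on the log2 scale) and least in the non-irradiated primary (SD 0.038).

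Among the nodules themselves Mt3 spanned 3.44 on the log2 scale, and 0.656% of all features spanned as much. The median feature spanned 0.31. Nodule 2 was the highest and nodule 1 the lowest, and spots within a nodule had SDs of 0.046 to 0.17. The nodules averaged -3.04 ± 1.72 (SD, n = 3), against -4.39 in the irradiated primary, a log2 difference of 1.35 (SE 1.30, 95% interval -2.04 to 4.74, limma adjusted p = 0.605). Of the nodules 2 were above the irradiated primary and 1 below it, so the difference was within their spread. It was 2.21 without nodule 1 (adjusted p = 0.057) and 0.49 without nodule 2 (adjusted p = 0.844). The nearest neighbours in the order of levels, nodule 1 and the irradiated primary, lay 0.37 apart, about as far as the spots of the irradiated primary scatter.

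Mt1, a metallothionein of most tissues, did not share the gap between the primaries. Its level was 3.41, 3.95 and 3.84 in the nodules and 5.09 in the irradiated primary, against 4.99 in the non-irradiated primary. In signal units this was 14194, 20731 and 23644 in the nodules and 48981 in the irradiated primary, against 40382.5 in the non-irradiated primary. Both primaries stood above every nodule, and the primaries were close to each other (log2 difference 0.11, irradiated minus non-irradiated). Mt1 fell by 1.25 on the log2 scale in the nodules against the non-irradiated primary (SE 0.24, limma adjusted p = 0.0319), a 2.38-fold lower level seen in 3 of 3 nodules. That call was lost without nodule 2 (adjusted p = 0.0806), without nodule 3 (adjusted p = 0.0757), with scaling to the array median (adjusted p = 0.0557) and without an intensity trend (adjusted p = 0.0578). The log2 difference from the irradiated primary was -1.36 (SE 0.24, 95% interval -1.98 to -0.74, limma adjusted p = 0.0586), also with 3 of 3 nodules lower. It passed without nodule 1 (adjusted p = 0.00355) and with normexp background correction (adjusted p = 0.0378).

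Mt2A, the other metallothionein of most tissues, was read by a probe with 10 spots, whose SDs of 0.030 to 0.044 show how closely one array repeats itself. Its level was 3.70, 5.32 and 4.81 in the nodules and 5.74 in the irradiated primary, against 6.14 in the non-irradiated primary. The nodules again lay under both primaries, but nodule 1 stood apart from the other two, 1.62 below nodule 2, and 3.82% of all features spanned as much over the nodules. Against the irradiated primary the nodules differed by -1.13 (SE 0.63, 95% interval -2.77 to 0.51, limma adjusted p = 0.37). Against the non-irradiated primary they differed by -1.53 (SE 0.63, 95% interval -3.18 to 0.11, limma adjusted p = 0.155). Neither passed, although 3 of 3 nodules were lower in both. Without nodule 1 the log2 difference from the non-irradiated primary was -1.08 and passed (adjusted p = 0.0149). The primaries differed by -0.40 (irradiated minus non-irradiated), and 48.2% of features differed as much between them. A second Mt2A probe with 1 spot gave nodules minus irradiated primary -1.13, nodules minus non-irradiated primary -1.44 and irradiated minus non-irradiated primary -0.31. Whether the probes of Mt1 and Mt2A also read each other's RNA was not tested.

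**Figure D2:**
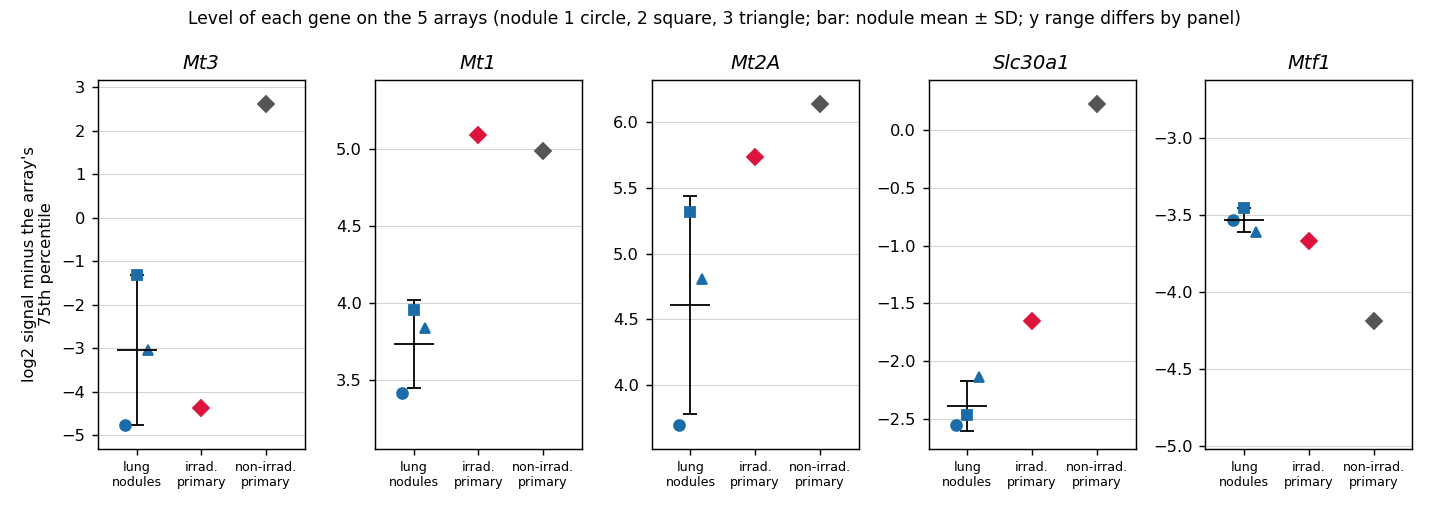
Levels of the 5 genes on the 5 arrays, as log2 signal minus the array's 75th percentile (vertical axes, with a range of their own per panel); symbols are single arrays and the bar is the mean of the 3 nodules ± SD. Mt3 reaches 2.62 in the non-irradiated primary, with the other 4 arrays at -1.32 or lower; Mt1 and Mt2A stand higher in both primaries than in any nodule; Slc30a1 is highest and Mtf1 lowest in the non-irradiated primary.

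Slc30a1, the zinc exporter of the plasma membrane, had the lowest adjusted p among the tested values of the 5 genes. Its level was -2.55, -2.47 and -2.14 in the nodules and -1.65 in the irradiated primary, against 0.23 in the non-irradiated primary. All nodules lay under both primaries, a layout found in 19.2% of all features. The nodules spanned 0.41 on the log2 scale, and 36.7% of all features spanned as much. Slc30a1 fell by 2.61 in the nodules against the non-irradiated primary (SE 0.22, limma adjusted p = 0.0111), 6.12-fold lower in 3 of 3 nodules. Without nodule 2, when 0 features of the array passed limma and 5008 had an unadjusted p under 0.05, the adjusted p was 0.0634 at a log2 difference of -2.57. Against the irradiated primary the nodules differed by -0.73 (SE 0.22, 95% interval -1.32 to -0.15, limma adjusted p = 0.161), with 3 of 3 lower. The irradiated primary was 3.68-fold lower than the non-irradiated primary (log2 difference -1.88, no test), and 1.91% of features were as much or further lower there. That difference was 8.71 times the SD of the nodules, 0.22, which does not measure how much primaries vary.

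Mtf1, the zinc-sensing factor that drives metallothionein genes, passed in neither test. Its level was -3.53, -3.45 and -3.61 in the nodules and -3.67 in the irradiated primary, against -4.19 in the non-irradiated primary. The non-irradiated primary was the lowest of the 5 arrays, the reverse of Slc30a1 and Mt3. The nodules differed from it by 0.66 (SE 0.22, 95% interval 0.091 to 1.22, limma adjusted p = 0.101) and from the irradiated primary by 0.14 (SE 0.22, 95% interval -0.43 to 0.70, limma adjusted p = 0.76). Its signals were dim, 115 to 136 units in the nodules and 113 in the irradiated primary, against 69.9 units in the non-irradiated primary. The irradiated minus non-irradiated difference of 0.52 was 0.18 with normexp correction and 0.44 with scaling to the array median.

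Set side by side, 3 of the 5 genes (Mt1, Mt2A and Slc30a1) had all nodules under both primaries, a layout found in 19.2% of all features. Leaving aside Mt3, whose place there is how it was chosen, the non-irradiated primary was the highest array for 2 of 4 genes (Mt2A and Slc30a1; 28.6% of all features) and the lowest for 1 (Mtf1; 32.5%). Nodule 1 was the lowest array for 4 of the 5 genes (15.9% of all features). Against the non-irradiated primary limma called 2 of the 4 tested genes, both lower in the nodules, where 18.6% of features were called, 9.72% as higher and 8.85% as lower. Without nodule 1 it also called Mt2A, without nodule 2 it called none of them, and without nodule 3 it called Slc30a1 alone (adjusted p = 0.0432). Over all features these fits called 6472 of 19076, 0 of 18994 and 296 of 19151. With the irradiated primary as comparator limma called 0 of 5, where 3.72% of features were called (0.909% higher and 2.81% lower in the nodules), and 2 of 5 (Mt1 and Slc30a1) had an unadjusted p under 0.05. Of the 18914 features tested, 4153 had an unadjusted p under 0.05 there. Between the primaries 1 of the 4 genes other than Mt3 differed at least 2-fold (Slc30a1, lower in the irradiated one), where 16.5% of features did (9.31% higher and 7.14% lower). The 2 comparisons with the non-irradiated primary share that array and are not independent.

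**Figure D3:**
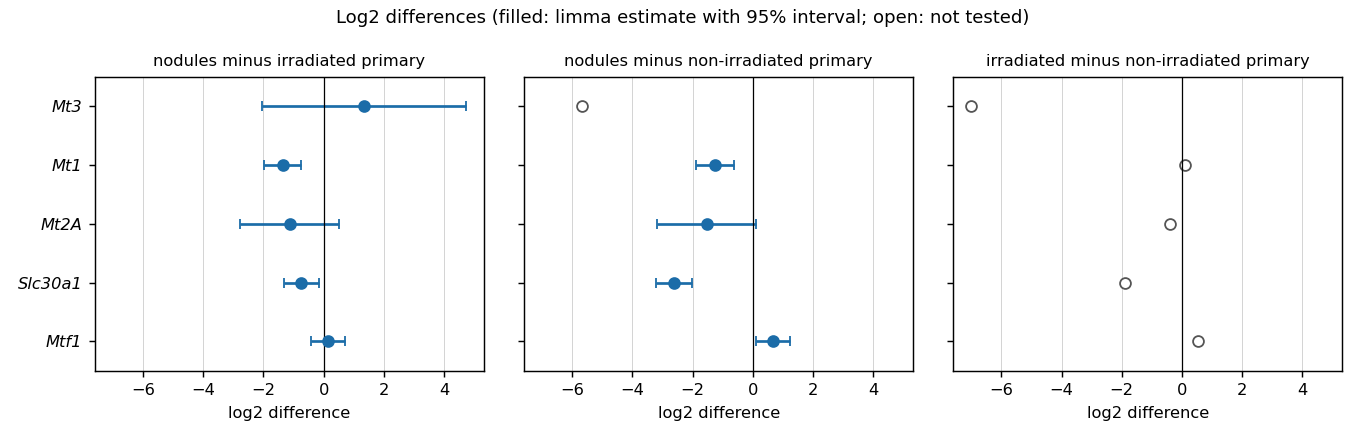
Log2 differences of the 5 genes (horizontal axes) in the 3 comparisons; filled points are limma estimates with 95% intervals and open points were not tested. Slc30a1 and Mt1 lie under 0 with intervals clear of it against the non-irradiated primary (-2.61 and -1.25), and Mtf1 lies above 0 (0.66), while Mt3 shows the widest interval against the irradiated primary (-2.04 to 4.74).

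Mt1, Mt2A, Mt3 and Mt4 neighbour each other on rat chromosome 19 in GRCr8, in that order. Mt4, a metallothionein of stratified epithelia and the 1 other family member on the array, was not well above background on any array. Of the 5 protein-coding genes on each side, taken here for their position, 7 were tested. Between the primaries 6 of these 7 differed by -0.61 to 0.39, and 1, the kidney salt transporter Slc12a3, by -2.14 (irradiated minus non-irradiated). Differences of at least 2-fold between them were found in 16.5% of all features. In the nodules 1 of 7 passed against the non-irradiated primary, Gnao1, a G protein subunit of neurons, which fell by 1.11 (limma adjusted p = 0.0241, lost without nodule 2 or nodule 3 at adjusted p = 0.101 and 0.0729). Of all features 18.6% were called against the non-irradiated primary. With the irradiated primary 0 of 7 passed limma, where 3.72% of all features did. An unadjusted p under 0.05 was reached by 1 of 7, and by 4153 of 18914 features. The next genes to the cluster on the array, Nup93 and Bbs2, read 0.20 and 0.34 between the primaries, with Mt3 at -7.00, Mt2A at -0.40 and Mt1 at 0.11.

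Among the named genes with the profile most like Mt3 over the 5 arrays, by the smallest root mean square difference of centred log2 levels among 11098 genes, were Cyp2d5, Gad1, Or6c203 and Cyp2d1 (0.87 to 1.10). Cyp2d5 and Cyp2d1 are cytochrome P450 enzymes, Gad1 makes the transmitter GABA, and Or6c203 is an olfactory receptor. Gad1 stood at -6.23, -2.02 and -3.89 in the nodules and -3.08 in the irradiated primary, against 1.48 in the non-irradiated primary. Like Mt3 it was highest in the non-irradiated primary and higher in nodule 2 than in nodules 1 and 3. These genes were chosen for likeness and several were dim, with Or6c203 above background on 1 array. For Mt1 the closest were Lrrc43, Ctxn1, Srgn, Cd68 and Trim36 (0.11 to 0.14), and for Mt2A Camk2b, Ank3, Lnx1, Rab27b and Fam151b (0.12 to 0.23). Cd68, a macrophage lysosomal protein, read -3.62, -3.32 and -3.44 in the nodules and -2.36 in the irradiated primary, against -2.34 in the non-irradiated primary. Macrophage markers as a list summed to 42.1 to 47.8 in the nodules and 51.2 in the irradiated primary, against 21.8 in the non-irradiated primary, with 9 of 10 above background on every array.

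Mt3 is a gene of brain, so markers of astrocytes and neurons were read beside it. Of 12 astrocyte markers 8 to 10 were above background in the nodules, 8 in the irradiated and 10 in the non-irradiated primary, while Gfap, the filament protein that defines astrocytes, and Gjb6 were above it on no array. Their summed signal was 15.5 to 18.1 in the nodules and 18.8 in the irradiated primary, against 9.71 in the non-irradiated primary. Clu and Gja1 made most of this sum on every array, at 3.34 and 2.74 in the irradiated and 1.22 and 1.90 in the non-irradiated primary. Of 10 tested, Gja1 alone passed against the non-irradiated primary, and it rose by 1.14 in the nodules (limma adjusted p = 0.0128). Between the primaries 2 astrocyte markers were at least 2-fold higher in the irradiated one, Clu by 2.13 and Aqp4 by 1.33. At least 2-fold lower there were 4, S100b, Fabp7 and the glutamate transporters Slc1a2 and Slc1a3. Both transporters were well above background in the non-irradiated primary alone of the pair. Over all features 9.31% were at least 2-fold higher and 7.14% at least 2-fold lower. Neuron markers summed to 0.844 to 1.20 in the nodules and 0.846 in the irradiated primary, against 3.30 in the non-irradiated primary, with 3 or 4 of 9 above background in the nodules and 4 in each primary. Snap25, Syt1, Syn1, Nefl and Nefm were above background on no array, and Gad1 made 2.79 of the sum in the non-irradiated primary. Without Gad1, left out after its values were seen, the order turned, with 0.827 to 0.952 in the nodules and 0.727 in the irradiated primary, against 0.506 in the non-irradiated primary. The cytoskeletal protein Map2 was the 1 neuron marker of 4 tested to pass against the non-irradiated primary, and it rose by 0.99 in the nodules (limma adjusted p = 0.0268). Over all features 9.72% rose in that comparison. The growth-associated protein Stmn2 differed by 1.90 (adjusted p = 0.0512). The part of these cells in the Mt3 values was not tested.

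Other exporters of the SLC30 family move zinc out of the cytosol, mostly into vesicles and the secretory pathway. Of 9 listed besides Slc30a1, 5 were tested, and 0 passed limma against either primary. Over all features 18.6% were called against the non-irradiated and 3.72% against the irradiated primary. An unadjusted p under 0.05 was reached by 1 of 5 against the non-irradiated primary, and by 6974 of 18914 features. Against the irradiated primary it was reached by 0 of 5, and by 4153 of 18914 features. Without nodule 1, 1 of 5 passed against the non-irradiated primary, where 6472 of 19076 features did. The median log2 difference of the 5 exporters was -0.13 against the irradiated and -0.26 against the non-irradiated primary, where all features had 0.034 and 0.038. Slc30a3, which fills synaptic vesicles with zinc, read -5.87, -4.36 and -5.38 in the nodules and -3.98 in the irradiated primary, against -5.30 in the non-irradiated primary. It was the 1 exporter of the list to differ at least 2-fold between the primaries, and it was higher in the irradiated one (log2 difference 1.32). Of all features 9.31% were at least 2-fold higher there.

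Importers of the SLC39 family bring zinc into the cytosol. Of 14 listed, 11 were tested, and against the non-irradiated primary 3 fell, 1 rose and 7 did not pass, with a median of -0.19. Over all features 8.85% fell and 9.72% rose in that comparison. The intestinal zinc importer Slc39a4 stood at -1.29, -2.23 and -2.60 in the nodules and 0.026 in the irradiated primary, against 0.64 in the non-irradiated primary. It fell by 2.68 against the non-irradiated primary (SE 0.53, limma adjusted p = 0.034). The plasma membrane importers Slc39a1 and Slc39a3 fell by 0.76 and 0.60 (adjusted p = 0.0301 and 0.0339). Slc39a6, an importer first described as an oestrogen-regulated gene, went the other way. It stood at 1.45, 1.43 and 1.48 in the nodules and 1.93 in the irradiated primary, against 0.33 in the non-irradiated primary, and rose by 1.12 (SE 0.11, adjusted p = 0.0128). Set against the irradiated primary 0 of 11 passed limma, where 3.72% of all features did, with a median of -0.12. An unadjusted p under 0.05 was reached by 3 of 11, and by 4153 of 18914 features. Without nodule 1, 4 of 11 passed there, and 3234 of 19076 features did. The 4 calls against the non-irradiated primary became 0 without nodule 2 or nodule 3, 2 with scaling to the array median and 1 without an intensity trend.

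**Figure D4:**
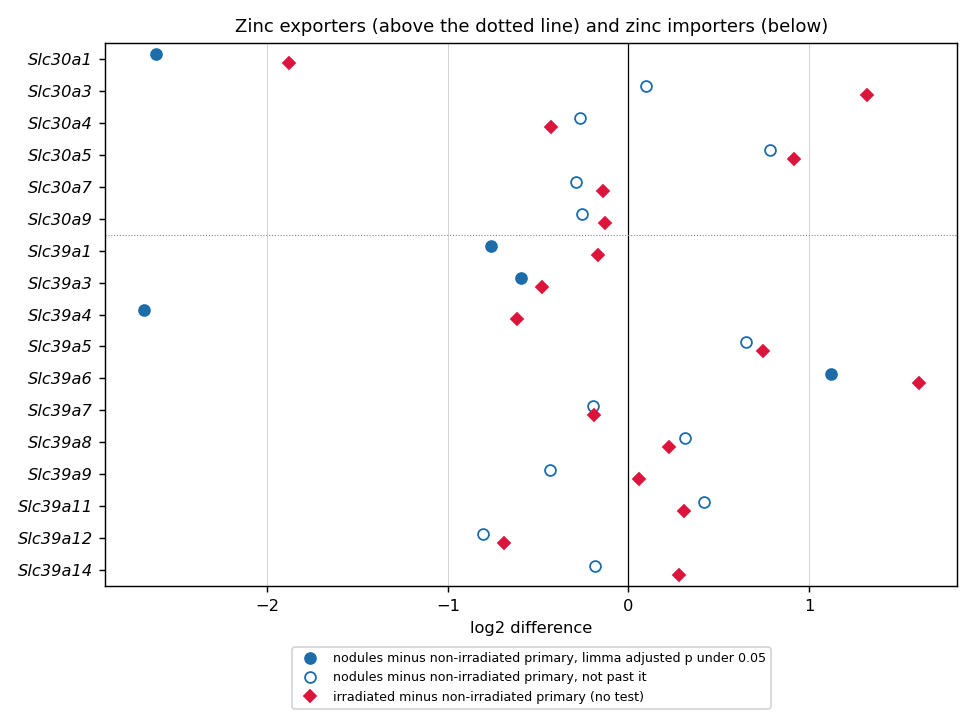
Log2 differences of the tested zinc exporters and importers (horizontal axis) from the non-irradiated primary; circles give the nodules, filled where limma's adjusted p was under 0.05, and diamonds the irradiated primary, which has no test. Both series share the non-irradiated array. Slc30a1 (-2.61 and -1.88) is lower in both, Slc39a4 (-2.68) mainly in the nodules, and Slc39a6 (1.12 and 1.61) is higher in both.

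Genes of other processes that touch the metallothioneins were read the same way. Of 12 copper-handling genes tested, 3 rose and 9 did not pass in the nodules against the non-irradiated primary, with a median of -0.13, where 18.6% of all features were called. The mitochondrial copper chaperone Cox17 rose by 0.94, the copper-zinc superoxide dismutase Sod1 by 0.86 and the copper-transport adaptor Commd1 by 0.58 (limma adjusted p = 0.0145, 0.0198 and 0.0337). Among 15 oxidative stress genes driven by NRF2, 1 rose (Prdx1, by 0.64), 1 fell (Gstp1, by 1.06) and 13 did not pass, with a median of -0.28. The 2 calls became 1 with median scaling or quantile normalization, 0 without the filter on dim probes or without an intensity trend, and 3 with the deposited matrix. Haem oxygenase Hmox1, induced by metals and oxidants, read 1.53, 0.37 and 0.37 in the nodules and 2.07 in the irradiated primary, against -0.20 in the non-irradiated primary, and the nodules did not pass (adjusted p = 0.251). Without nodule 2 the count of calls was 0 in both lists, as it was in the 4 lists that follow. Without nodule 3 it was 0 in the copper, NRF2, hypoxia and STAT3 lists, 2 in the glucocorticoid list and 1 in the heat shock list. Without nodule 1 it was 5 in the copper list, 7 in the NRF2 list and 8 in the hypoxia list. In that fit 6472 of 19076 features passed against the non-irradiated primary.

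The glucocorticoid-responsive genes, 12 tested, moved both ways against the non-irradiated primary: 3 rose (Errfi1 by 2.45, Dusp1 by 2.52, Ddit4 by 1.01), 2 fell (Glul by 0.67 and Sgk1 by 0.51) and 7 did not pass (median 0.036). The 5 calls became 3 with median scaling and 2 without an intensity trend. Over all features 9.72% rose and 8.85% fell in the nodules against the non-irradiated primary, the shares to set beside each list here. Between the irradiated and the non-irradiated primary 2 genes of this list were at least 2-fold higher (the phosphatase Dusp1 by 3.31 and the EGF receptor inhibitor Errfi1 by 1.70) and 2 at least 2-fold lower (the receptor co-chaperone Fkbp5 at -1.08 and the transcription factor Klf9 at -1.20). Of 10 heat shock genes, whose products also answer to metals, 8 rose and 2 did not pass, with a median of 0.90, and the chaperone Hsph1 rose by 2.42 (adjusted p = 0.0115). Heat shock genes in the irradiated primary were at least 2-fold higher than in the non-irradiated primary for 5 of 10 and lower for 0. Over all features 9.31% were at least 2-fold higher there and 7.14% at least 2-fold lower. Of 14 hypoxia genes 4 fell and 10 did not pass against the non-irradiated primary (median -0.49), with 2 calls under median scaling or without an intensity trend. With the irradiated primary as comparator 6 fell and 8 did not pass (median -1.50), where 2.81% of all features fell and 0.909% rose. Among the 6 was the glucose transporter Slc2a1, which fell by 2.96 (adjusted p = 0.0139). Those 6 became 0 without nodule 2, 1 without nodule 3, 11 without nodule 1, 2 with median scaling and 3 without an intensity trend. Of 10 genes of the STAT3 and acute phase list 1 rose, haptoglobin Hp, by 1.40 (adjusted p = 0.0479) and 9 did not pass (median -0.12). That call was lost with median scaling, quantile normalization, no filter on dim probes, no intensity trend and the deposited matrix. In the comparison with the irradiated primary 0 copper, 0 NRF2, 0 glucocorticoid and 0 STAT3 genes passed limma, where 3.72% of all features did. An unadjusted p under 0.05 was reached by 1, 5, 6 and 3 of them, and by 4153 of 18914 features. Without nodule 1 the passing counts were 1, 6, 5 and 3, where 3234 of 19076 features passed. With all nodules kept, NRF2 had 2 calls with quantile normalization or the deposited matrix and 1 with normexp correction. Glucocorticoid genes had 1 call under each of those settings. In the same comparison the small chaperones Hspb1 and Cryab fell by 1.62 and 0.76 (adjusted p = 0.0128 and 0.046), and neither passed without nodule 2 or nodule 3. The count of 2 was 1 with median scaling, quantile normalization, no filter on dim probes, no intensity trend or the deposited matrix, and 4 with normexp correction or without nodule 1.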

How the data were processed

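Total RNA of 3 lung nodules and 2 primary tumours was labelled with Cy3 and read on 1-colour Agilent rat arrays. Per the file headers, Agilent Feature Extraction 11.0 made the deposited spot intensity values, corrected for background and detrended within each array. The deposited flags for outlier, saturated and well-above-background spots are other values of 0 or 1, per the file headers. A deposited matrix of log2 values for 18502 probes was made by the authors in a way not given in the sources used here; its 5 columns had a median of 9.74, correlated with the log2 signals of their own arrays at 0.9996 to 0.9999, and differed by at most 0.000749 once sorted.

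Spots flagged as outliers were left out, log2 signals of a probe's spots were averaged, and each array's 75th percentile was subtracted. Probes were named through their RefSeq accession in a table of assembly GRCr8, which named 18346 of 30363 usable probes. The array was designed on another rat build, so no array coordinates are given. A probe counted as well above background with over 50% of its used spots flagged so, and was tested if this held on all arrays of at least 1 group. The brightest probe stood for a gene, which left 18914 features. The test of nodules against either primary was limma's moderated test (version 3.58.1, R 4.3.3), with the prior variance following the intensity, p-values adjusted by Benjamini-Hochberg over all features and a threshold of 0.05. The fit was tested on simulated data. Between the primaries, genes past a log2 difference of 1 were counted, without a test. The planned normexp correction (offset 50) used median spot signals.

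The members, gene lists, naming rule and alternatives were chosen with earlier results of these data known. Named were the 5 members, the 5 genes most like Mt3, Mt1 and Mt2A each, and called or extreme genes of the lists, some given in counts and 1 of those most like Mt3 not reported here; the chromosomal neighbours and the listed Hmox1, Fkbp5, Klf9, Stmn2 and Slc30a3 were added after values were seen. Lists cover other metallothioneins, zinc exporters and importers, copper handling, NRF2, glucocorticoid, heat shock, hypoxia and STAT3 genes. Markers cover astrocytes, neurons, skeletal and heart muscle, alveolar and airway cells, macrophages, fibroblasts, endothelium and erythroid cells.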

Additional observations from a re-analysis of the deposited data

How the results depend on the processing

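Of 145 member values under the 11 alternatives, 135 kept their direction and their side of the threshold or moved by less than 1 SD of the nodules, and 0 reversed. Some could not change, since the probe filters and probe averaging leave the log2 differences of a gene with 1 probe as they are. All Mt3 values are among the 135. The Mt3 difference between the primaries was -5.92 with normexp, a move of less than the nodule SD of 1.72. The exceptions to the 135 follow. Mt1 against the non-irradiated primary lost its call with scaling to the array median (-1.24, adjusted p = 0.0557) and without an intensity trend (-1.25, adjusted p = 0.0578), and over the omitted nodules it ranged from -1.36 to -1.09. Mt1 against the irradiated primary passed with normexp correction (-1.35, adjusted p = 0.0378) and ranged from -1.47 to -1.20 over the omitted nodules. Over the same omissions Mt2A against the non-irradiated primary ranged from -1.89 to -1.08 and Slc30a1 from -2.74 to -2.53. The Mtf1 difference between the primaries was 0.44 with median scaling and 0.18 with normexp. The deposited matrix changed no member call. Slc30a1 kept its call under the 8 processing alternatives with all nodules.

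Counts over all features depended on the nodules. Against the irradiated primary 704 features were called, 438 with median scaling, 399 without an intensity trend and 14 to 3234 over the omitted nodules. The 14 were without nodule 2 and the 3234 without nodule 1. Against the non-irradiated primary 3512 were called, and 0 to 6472 over the omitted nodules, the 0 being without nodule 2, with 5008 features at an unadjusted limma p under 0.05. The 6472 were without nodule 1. Between the primaries 3035 features differed at least 2-fold, and 1495 with normexp correction. Counts for the gene lists stayed within 1.5 times in 194 of 261 cases. They include the list of other metallothioneins, with 0 genes tested in the main fit. Most of its counts of 0 could not change. The cause of the shifts in counts was not tested, apart from the fewer samples when a nodule is left out. With 1 nodule omitted the lone primaries were assumed to vary like the remaining pair. Fibroblast, endothelial and erythroid markers summed to 65.6 to 92.1, 1.27 to 3.80 and 104 to 222 in the nodules, against 62.9, 0.966 and 29.6 in the irradiated and 32.4, 0.762 and 9.52 in the non-irradiated primary. No paired analysis was possible because each kind of primary has 1 array, so the groups compared share fewer than 2 replicate numbers. Dim signals limit Mtf1, and Mt3 in nodule 1 and the irradiated primary.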
